A study of Mus musculus with 4 samples.

Results

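The mitochondrial ribosomal protein genes are the nuclear genes named Mrpl, for the large subunit, and Mrps, for the small subunit of the ribosome inside mitochondria. Members were the genes whose symbol consists of Mrpl or Mrps, a number and at most 1 further letter, and which had a probe set assigned to that symbol alone. Of 18193 genes with such probe sets, 76 were members, 47 of them Mrpl and 29 Mrps genes. The members had 156 of the 45101 probe sets on the array, and each gene is described here by its brightest one, by the mean of all 4 arrays. The rule for members used the symbols and their overall brightness, and no difference between the groups. It was chosen with earlier results of these data known. All 76 passed the filter on dim probe sets, a mean of at least 0.45 on the log2 scale, which 15103 genes passed in all.

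Mitochondrial ribosomes translate the few messenger RNAs that mitochondrial DNA encodes, all of them for subunits of the respiratory chain and ATP synthase. The ribosomal RNAs come from mitochondrial DNA as well, but every ribosomal protein is encoded in the nucleus, made in the cytosol and imported. About the catalytic and decoding centres many of these proteins have counterparts in bacteria, and others were added during the evolution of mitochondria. In skeletal muscle, with its high demand for ATP, loss of single members causes inherited disease with weak muscle or cardiomyopathy.

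RNA came from the tibialis cranialis, a shin muscle that lifts the paw, in 8 mice, all male and of the C57Bl/6 strain, whose high fat diet began at an age of 8 weeks. After 4 weeks of it, AAV8 ProMyo was injected in 1 leg and saline in the other, and the muscles were collected 10 weeks later, at an age of 22 weeks. AAV8 is an adeno-associated virus used to carry genes into muscle, and ProMyo is the myostatin propeptide, an inhibitor of the growth inhibitor myostatin. Each of the 4 arrays held RNA mixed from 4 mice: ProMyo 1-4, ProMyo 5-8, saline 1-4 and saline 5-8, where the numbers are those of the animals. All mice, the controls included, were on the high fat diet. The control leg had no empty virus, so effects of the virus and of its cargo cannot be told apart, and the promoter that drives ProMyo is not given in the sources used here. A group therefore has 2 arrays, and a p-value weighs a difference between groups against the spread between mixtures, not between single mice.

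The labelled tissue showed its markers, since 6 of 6 genes of muscle fibres averaged between 9.26 and 12.17. The summed level of these 6 genes, as log2 of the sum of linear values, was 14.19 and 14.11 with ProMyo and 14.04 and 13.96 with saline, so that both ProMyo arrays were above both saline arrays. The summed level of 4 endothelial genes was 5.27 and 5.24 in ProMyo legs and 5.17 and 5.12 in saline legs. That of 5 macrophage genes was 7.26 and 7.12 against 7.72 and 7.44, and that of 4 fibroblast genes 9.24 and 9.18 against 9.48 and 9.63. Among the macrophage genes Cd68 differed by 0.01, and the others by -0.31 to -0.48. The fibroblast genes did not share a direction: the difference was -0.68 for Col1a1, -0.10 for Pdgfra, 0.03 for Dcn and 0.63 for Lum. Of 3 adipocyte genes measured, 1 was above the background controls. In a bulk sample, fewer cells of a type and less RNA per cell cannot be told apart. The saline 5-8 array stood apart: its hybridization controls averaged 10.98, where the other 3 arrays had 9.86 to 9.92, and its upper quartile of all probe sets was 2.97, where theirs was 3.15 to 3.20. As a measure of RNA integrity, the log2 signal of the 5' probe set was subtracted from that of the 3' one. For Gapdh this difference was 0.58 and 0.74 with ProMyo and 0.90 and 0.81 with saline. For Actb it was 1.64 and 1.72 with ProMyo and 1.96 and 1.80 with saline. The part of these differences in the values of the members was not tested.

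Promoters of 67 of the 76 members were found in the RefSeq promoter table (build GRCm38.p6, 250 bases before to 50 after a start site). The 5 shown here belong to members named below, and all 5 hold a motif. For all 5 genes, ProMyo minus saline was positive. Other named members with a motif are not shown, among them Mrps24, Mrps7 and Mrpl3, for which it was negative. The choice of promoters therefore cannot show whether a motif and the direction of a gene go together. Promoters of members without a motif are not shown. Capitals mark 3 motifs on either strand: CGCATGCG, the core of the NRF-1 site; CCGGAAG, the core of the site for GABP, also called NRF-2; and AAGATGG, part of the YY1 site. These factors are known regulators of nuclear genes for mitochondrial proteins.

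Mrpl22 (chr11:58171414-58171713, plus strand): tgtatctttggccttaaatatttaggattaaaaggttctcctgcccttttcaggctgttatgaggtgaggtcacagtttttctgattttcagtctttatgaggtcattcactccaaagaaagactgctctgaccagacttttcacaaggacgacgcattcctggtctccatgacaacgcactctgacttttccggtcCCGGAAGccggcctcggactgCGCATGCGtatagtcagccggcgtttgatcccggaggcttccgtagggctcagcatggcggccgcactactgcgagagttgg
Mrpl21 (chr19:3282792-3283091, plus strand): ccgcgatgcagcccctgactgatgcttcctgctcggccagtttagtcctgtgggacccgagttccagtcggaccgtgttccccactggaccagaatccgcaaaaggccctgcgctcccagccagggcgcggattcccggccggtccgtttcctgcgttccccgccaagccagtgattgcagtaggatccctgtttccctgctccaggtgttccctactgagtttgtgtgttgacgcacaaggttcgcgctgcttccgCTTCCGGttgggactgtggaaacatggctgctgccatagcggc
Mrps12 (chr7:28741772-28742071, minus strand): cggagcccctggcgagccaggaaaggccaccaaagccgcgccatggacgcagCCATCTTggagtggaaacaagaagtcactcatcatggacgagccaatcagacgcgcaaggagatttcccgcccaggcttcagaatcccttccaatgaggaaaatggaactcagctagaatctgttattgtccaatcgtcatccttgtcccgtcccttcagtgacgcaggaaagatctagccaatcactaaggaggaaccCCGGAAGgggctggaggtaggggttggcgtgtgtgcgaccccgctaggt
Mrps33 (chr6:39810887-39811186, minus strand): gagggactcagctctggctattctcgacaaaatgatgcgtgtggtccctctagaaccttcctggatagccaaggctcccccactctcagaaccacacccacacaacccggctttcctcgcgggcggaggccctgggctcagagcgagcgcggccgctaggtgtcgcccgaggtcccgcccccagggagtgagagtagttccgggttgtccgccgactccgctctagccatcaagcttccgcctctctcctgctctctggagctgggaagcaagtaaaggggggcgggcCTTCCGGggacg
Mrps11 (chr7:78782881-78783180, plus strand): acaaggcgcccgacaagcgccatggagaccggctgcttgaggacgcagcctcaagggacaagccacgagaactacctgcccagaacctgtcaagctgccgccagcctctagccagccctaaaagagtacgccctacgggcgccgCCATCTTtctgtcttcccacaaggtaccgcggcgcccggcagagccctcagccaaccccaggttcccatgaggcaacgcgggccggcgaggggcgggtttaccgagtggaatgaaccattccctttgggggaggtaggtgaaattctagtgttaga

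Positions are those of a motif's first printed base, counted from the start site as 0. The Mrpl22 promoter held a GABP core at -53 and an NRF-1 core at -32. The Mrps12 promoter held a YY1 core at -198 and a GABP core at 1. Mrpl21 and Mrps33 had a GABP core after the start, at 7 and 38, and Mrps11 a YY1 core at -106. Of the 67 member genes, 25 (37.3%) held the GABP core, against 12.9% of 17491 protein-coding genes in the table. The YY1 core was in 13 members (19.4%) against 7.18% of coding genes, and the NRF-1 core in 7 members (10.4%) against 2.77%. At least 1 of the 3 was in 37 members (55.2%) and in 21.0% of coding genes. A match is a stretch of sequence, not a bound site. Among the members, the median difference between ProMyo and saline muscle was 0.13 for those with any of the 3 motifs and 0.14 for the 30 without. By motif it was 0.17 with and 0.12 without the GABP core, 0.19 and 0.12 for the YY1 core, and 0.09 and 0.14 for the NRF-1 core, and none of these differences was tested. A start site of another coding gene on the opposite strand lay within 1000 bases upstream in 23 members (34.3%), against 8.48% of coding genes.

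The comparison of ProMyo with saline muscle addresses what the myostatin propeptide changes in muscle of mice on a fatty diet. All differences are log2 values of ProMyo minus saline. More members were higher than lower in ProMyo muscle, by small amounts: the median over all 76 was 0.13, with quartiles of -0.003 and 0.23. Small subunit genes had a median of 0.18 and large subunit genes of 0.09, against 0.01 over all 15103 genes. In both pools 37 members were higher and 13 lower in ProMyo muscle, 25 differed in direction between the pools, and Mrpl1 was equal in pool 1-4. Across all genes, 29.0% were higher and 24.0% lower in both pools, and among the members 48.7% and 17.1%.

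No member passed limma's test, in which 0 of 15103 genes (0%) had an adjusted p under 0.05. For all members the smallest adjusted p was 0.82. At an unadjusted p under 0.05, limma put 463 genes (3.07%) higher and 411 (2.72%) lower in ProMyo muscle, and among the members 1 higher and 0 lower. The member was Mrpl22, so the members had no more such genes than the background. With the pools paired as a block, limma also called 0 genes, and at an unadjusted p under 0.05 it put 612 genes (4.05%) higher and 427 (2.83%) lower. Among the 76 members 3 were higher there and 0 lower, a share near that of all genes: Mrps33, Mrps35 and Mrpl22 (limma, adjusted p = 0.68 for each). The median standard error of a single member's difference was 0.18.

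Part of the excess over all genes is shared by genes of similar signal. The members averaged between 3.01 and 9.53, and of the 6716 genes in that range 35.6% were higher in both pools and 20.4% lower, with a median of 0.05. These genes were the lowest on the saline 5-8 array in 45.7% of cases, and the members in 46.1%, or 35 of 76. The members were highest on the ProMyo 1-4 array in 48 of 76 cases (63.2%), against 33.5% of the genes of similar signal. With arrays centred on the median of those genes, 25 members were higher and 15 lower in both pools, with medians of 0.12 for the small and 0.03 for the large subunit. Quantile normalization gave 26 and 15, with medians of 0.11 and 0.02. The shares of 35.6% and 20.4% are from the arrays as deposited. No such shares were taken with either scaling, so whether an excess of members remained there was not tested. When saline 5-8 was left out, the large subunit median was -0.017 and the small subunit median 0.15. When ProMyo 1-4 was left out, they were 0.0021 and 0.064. The size of the large subunit median therefore rested on each of these arrays, and its direction on saline 5-8.

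**Figure D1:**
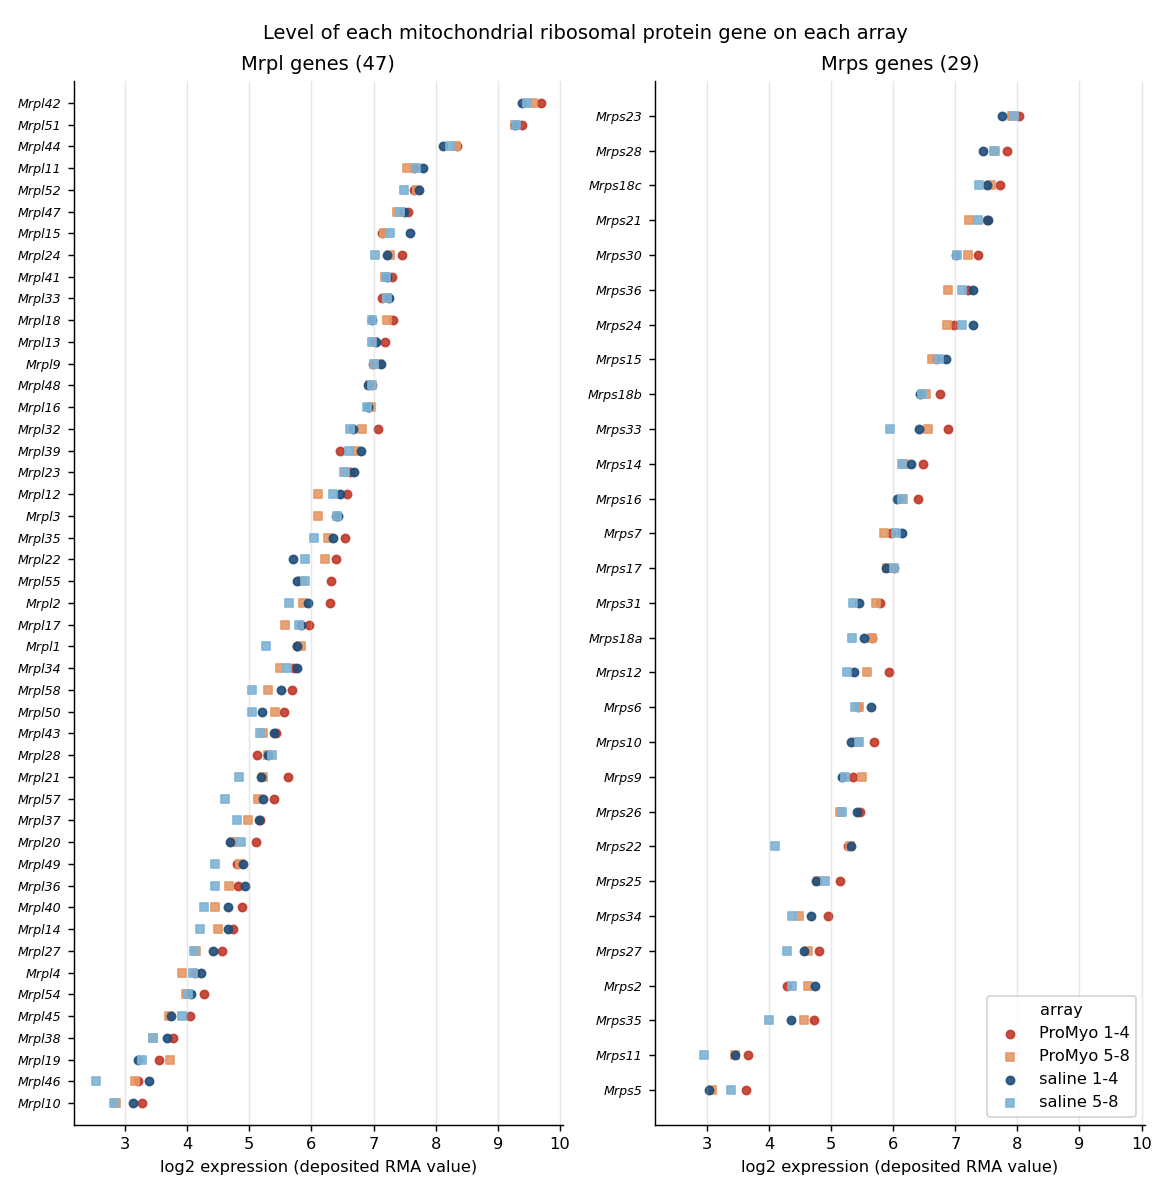
Level of each of the 76 genes on each of the 4 arrays (x axis, log2 expression as deposited; 1 row per gene, ordered by mean). Circles are pool 1-4 and squares pool 5-8, red and orange for ProMyo, dark and light blue for saline; in 35 of 76 rows the saline 5-8 array is the lowest point and in 48 the ProMyo 1-4 array the highest.

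Signals of different probe sets do not rank transcripts, since each has its own probes, so the brightest and dimmest members describe the range of measurement only. Mrpl42, a large subunit protein with no bacterial counterpart, read 9.69 and 9.57 in ProMyo legs and 9.40 and 9.47 in saline legs. Its 2 ProMyo arrays lay above both saline arrays, with a difference of 0.19 ± 0.16 (SE, n = 2 arrays per group). Mrpl51 read 9.40 and 9.27 with ProMyo and 9.28 and 9.30 with saline, with overlap. Mrpl44, whose loss causes cardiomyopathy in infants, read 8.34 and 8.32 against 8.12 and 8.24, a difference of 0.15 ± 0.16. All 4 of its probe sets differed in that direction in both pools. In the small subunit the brightest were Mrps23, Mrps28 and Mrps18c, with differences of 0.13, 0.20 and 0.21. The brightest probe set of Mrps23 can cross-hybridize by its name. The dimmest members were Mrpl10, Mrpl46, Mrpl19, Mrps5, Mrps11 and Mrps35, all with means above the highest background control, at 0.99.

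In the large subunit, 22 of 47 genes were higher in both pools and 8 lower. For 10 genes (21.3%) both ProMyo arrays were above both saline arrays, against 17.8% of all genes and 22.3% of genes of similar signal. For 5 genes (10.6%) both were below, against 15.7% and 12.2%. These shares are close to the background. The highest difference was that of Mrpl22, a protein that lines the exit tunnel for the growing peptide. It read 6.39 and 6.22 in ProMyo legs and 5.70 and 5.89 in saline legs. The groups did not overlap, and the difference was 0.51 ± 0.17, or 1.42-fold (limma, adjusted p = 0.82). Mrpl21, which binds ribosomal RNA, read 5.63 and 5.22 with ProMyo and 5.18 and 4.82 with saline. Here the lower ProMyo array exceeded the higher saline array by little, while the differences within the pools were alike at 0.45 and 0.39. Its second probe set, at a mean of 2.67, differed by 0.02. Mrpl19 read 3.55 and 3.71 in ProMyo legs and 3.20 and 3.27 in saline legs, a difference of 0.40 ± 0.16. The brightest probe set of Mrpl19 can cross-hybridize by its name. The next brightest probe set of Mrpl19 differed by 0.87, with 1.72 in pool 5-8 and 0.01 in pool 1-4.

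At the lower end of the large subunit, Mrpl15 read 7.13 and 7.17 with ProMyo and 7.58 and 7.26 with saline. Its brightest probe set can cross-hybridize by its name. The difference of -0.27 ± 0.18 came mostly from pool 1-4 (-0.45 against -0.09), and the other 4 probe sets of Mrpl15 above the background controls differed by -0.12, -0.01, 0.18 and -0.30. Mrpl3, a protein near the peptidyl transferase centre and a gene of inherited cardiomyopathy, read 6.39 and 6.10 in ProMyo legs and 6.43 and 6.42 in saline legs. Its difference of -0.18 ± 0.18 was not shared by its other 3 probe sets, which were at 0.16, 0.51 and 0.48. Mrpl11, at the base of the stalk that recruits translation factors, read 7.65 and 7.54 against 7.79 and 7.69 and differed by -0.14 ± 0.16. Its brightest probe set can cross-hybridize by its name, and the probe set without that mark differed by 0.08. So none of these low values was common to all probe sets of its gene.

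The stalk itself carries Mrpl12, which also binds the mitochondrial RNA polymerase, on Mrpl10. Mrpl12 read 6.57 and 6.10 with ProMyo and 6.46 and 6.35 with saline, with overlap and a difference of -0.07 ± 0.21. Mrpl10 read 3.26 and 2.85 against 3.12 and 2.82, a difference of 0.09 ± 0.22, where both pools differed from each other by more than the groups. Mrpl58, which releases peptides from stalled ribosomes, read 5.69 and 5.29 in ProMyo legs and 5.51 and 5.05 in saline legs. Within the pools its differences were 0.18 and 0.24, while in either group the 5-8 pool was below the 1-4 pool by more than that. Mrpl46 read 3.20 and 3.16 with ProMyo and 3.39 and 2.53 with saline, so its difference of 0.22 ± 0.31 rested on the saline 5-8 array and was -0.21 without it.

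In the small subunit, 15 of 29 genes were higher in both pools and 5 lower. Both ProMyo arrays were above both saline arrays for 13 genes (44.8%), against 17.8% of all genes and 22.3% of genes of similar signal. Both were below for 3 genes (10.3%), against 15.7% of all genes and 12.2% of genes of similar signal. Among the 13, Mrps28 and Mrps16 had no overlap by a margin of 0.002 only. With Mrps36, Mrps18a and Mrps30 left out, the latter 2 because their proteins sit in the large subunit, 11 of 26 genes (42.3%) were above. Whether the small subunit genes differed from the large subunit genes was not tested. The highest difference within both pools was that of Mrps33, a protein with no bacterial counterpart, which read 6.89 and 6.55 in ProMyo legs and 6.41 and 5.95 in saline legs. In both groups the 5-8 pool was below the 1-4 pool, and within the pools ProMyo was above saline by 0.47 and 0.60. The difference was 0.54 ± 0.23, or 1.45-fold (limma, adjusted p = 0.83). Mrps35, likewise without a bacterial counterpart, read 4.72 and 4.56 with ProMyo and 4.35 and 3.99 with saline, a difference of 0.47 ± 0.19 or 1.38-fold. Mrps12, which forms part of the decoding centre, read 5.93 and 5.58 in ProMyo legs and 5.37 and 5.25 in saline legs. Its groups did not overlap either, with a difference of 0.44 ± 0.19. Mrps33, Mrps35 and Mrps12 have 1 probe set each, so their differences could not be set against a second one, and that of Mrps12 can cross-hybridize by its name.

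**Figure D2:**
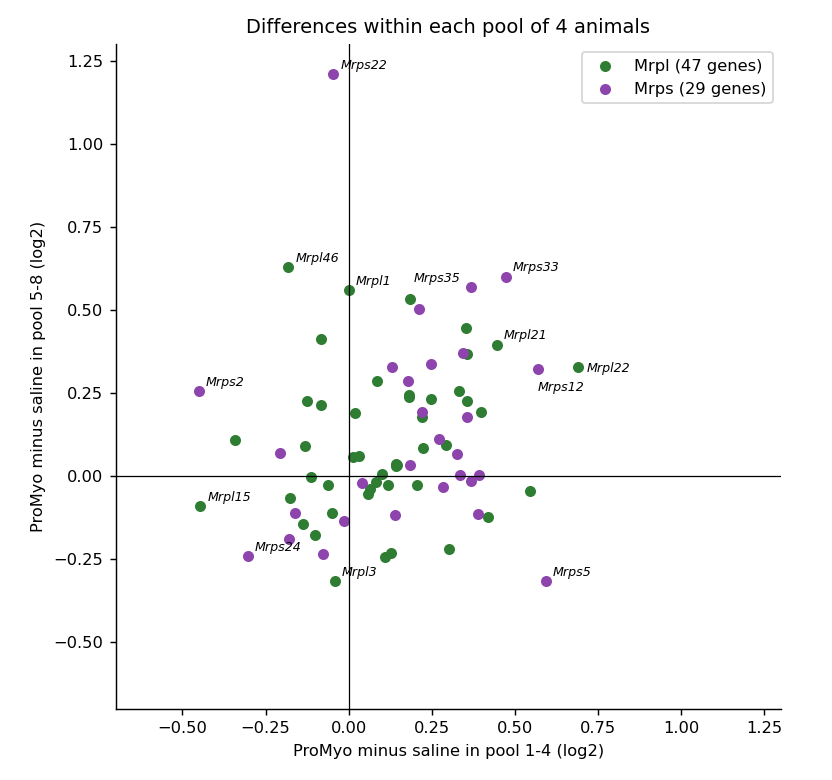
ProMyo minus saline within pool 1-4 (x axis, log2) against the same within pool 5-8 (y axis, log2) for 47 Mrpl genes (green) and 29 Mrps genes (purple), 1 point per gene. In the upper right, 37 genes are higher in both pools and in the lower left 13 are lower; Mrps22 stands at -0.05 and 1.21.

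Mrps22, a gene of inherited mitochondrial disease, had the largest mean difference of all members, 0.58 ± 0.41, from 1 array. It read 5.28 and 5.30 with ProMyo and 5.33 and 4.09 with saline, where the first 3 values lay close together. Without the saline 5-8 array the difference was -0.04. Mrps5, at the entry of the messenger RNA, read 3.62 and 3.08 in ProMyo legs and 3.03 and 3.39 in saline legs. It was higher in ProMyo muscle by 0.59 in pool 1-4 and lower by 0.32 in pool 5-8, and its next probe sets differed by 0.27 and 0.39. Mrps11, a protein of the small subunit platform, read 3.66 and 3.46 with ProMyo and 3.45 and 2.95 with saline, with 0.36 ± 0.22.

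At the lower end, Mrps24, the counterpart of a bacterial protein at the entry of the messenger RNA, read 6.98 and 6.87 in ProMyo legs and 7.28 and 7.11 in saline legs. Its difference was -0.27 ± 0.16, within both pools, while its other probe set differed by 0.12. Both probe sets of Mrps24 can cross-hybridize by their names. Mrps7, which binds the small ribosomal RNA early in assembly, read 5.96 and 5.86 against 6.14 and 6.05, a difference of -0.18 ± 0.16 with no overlap. Mrps36 read 7.20 and 6.88 with ProMyo and 7.28 and 7.11 with saline. Despite its name its protein is known as a subunit of the 2-oxoglutarate dehydrogenase complex, and without it the small subunit median was also 0.18.

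Mrps18a, Mrps18b and Mrps18c are paralogs that derive from 1 bacterial protein. Mrps18a, which is built into the large subunit, read 5.65 and 5.66 in ProMyo legs and 5.52 and 5.34 in saline legs, a difference of 0.23 ± 0.16. Mrps18b read 6.76 and 6.52 against 6.43 and 6.46, with 0.20 ± 0.17. Mrps18c, which takes the place of the bacterial protein, read 7.73 and 7.58 against 7.51 and 7.39, with 0.21 ± 0.16. In all 3 both ProMyo arrays were above both saline arrays, by 1.15-fold to 1.17-fold. Mrps30, which also sits in the large subunit, read 7.37 and 7.21 with ProMyo and 7.01 and 7.03 with saline, with 0.27 ± 0.16. With Mrps18a and Mrps30 counted where their proteins sit and Mrps36 left out, the medians were 0.17 for the small and 0.09 for the large subunit.

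Members were also parted by whether their protein has a bacterial counterpart, from the current names of ribosomal proteins. Of 45 with a counterpart, 20 (44.4%) were higher in both pools and 12 (26.7%) lower, with a median of 0.09. Of 30 without one, 17 (56.7%) were higher in both pools and 0 (0%) lower, with a median of 0.18. Across all genes these shares were 29.0% and 24.0%, and among genes of similar signal 35.6% and 20.4%. This split was not repeated with other scalings or without single arrays. The 30 included 12 small subunit genes with a median of 0.25 and 18 large subunit genes with 0.10. The difference between both kinds was not tested, and 13 of the 30 had opposite directions in the pools. Mrps18a and Mrps18b were counted among the 30.

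The choice of probe set changed the direction of many members. For 34 members the next brightest probe set was above the background controls, and in 15 of them it had the direction of the brightest one. Over these 34 genes the median was 0.05 at the brightest and 0.08 at the next brightest probe set, of which 15 were higher in both pools and 8 lower. The 34 members with 1 probe set had a median of 0.20, with 22 higher in both pools and 4 lower, and the 42 with 2 or more had 0.08, with 15 and 9. Among the members named here, Mrpl44, Mrpl15, Mrpl11, Mrpl19, Mrpl21, Mrpl51, Mrps23 and Mrps5 kept the direction at the next brightest probe set, and Mrpl3 and Mrps24 did not.

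**Figure D3:**
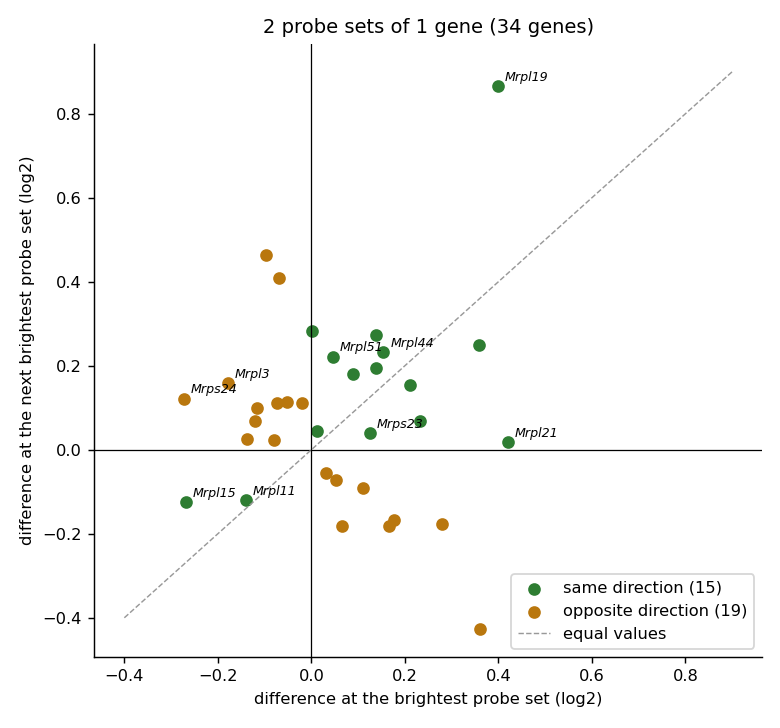
Difference between ProMyo and saline muscle at the brightest probe set (x axis, log2) against that at the next brightest one (y axis, log2) for the 34 members with a second probe set above the background controls. Green points, 15 genes, have the same direction at both, orange points, 19 genes, the opposite, and the dashed line marks equal values.

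Of the members whose promoter faces that of a coding neighbour, Mrps11 and Mrpl46 face each other with start sites 42 bases apart. Both had their lowest level on the saline 5-8 array, 2.95 and 2.53, and in pool 1-4 they differed in direction (0.21 and -0.18). Mrpl21 lies 32 bases from Ighmbp2, a helicase gene, which read 2.70 and 3.06 in ProMyo legs and 3.08 and 3.72 in saline legs. The difference of Ighmbp2 was -0.52 ± 0.27, opposite to the 0.42 ± 0.23 of Mrpl21 in both pools. Mrps12 lies 147 bases from Sars2, the mitochondrial seryl-tRNA synthetase gene, which differed by -0.06 ± 0.18 against 0.44 for Mrps12. Sars2 was dim, between 1.47 and 1.74. Mrpl32 lies 205 bases from Psma2, a proteasome gene, and both were higher in both pools, by 0.29 and 0.13. No pair was tested.

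Of 7 symbols listed for ribosomal proteins with other names, 4 were measured, and Mrp63 and Ict1 are older names of the members Mrpl57 and Mrpl58. Ptcd3, a small subunit protein, differed by 0.28 ± 0.16, Dap3, a GTP-binding one, by 0.09 ± 0.22, and Gadd45gip1, of the large subunit, by -0.15 ± 0.15. Of 13 translation factors measured, 7 were higher in both pools and 1 lower, with a median of 0.15. Gfm2, which splits ribosomes after translation, read 4.13 and 3.91 with ProMyo and 3.47 and 3.03 with saline, a difference of 0.77 ± 0.21 (limma, adjusted p = 0.82). Mtrf1l and Lrpprc, a release factor and a stabilizer of mitochondrial messenger RNA, differed by 0.30 ± 0.19 and 0.24 ± 0.18. The elongation factors Tufm and Gfm1 stood at 0.11 ± 0.18 and 0.15 ± 0.18. Of 26 assembly factors 7 were higher in both pools and 3 lower, with a median of 0.09, which was -0.07 in pool 1-4 and 0.19 in pool 5-8. Fastkd2, which binds the large ribosomal RNA, differed by 0.33 ± 0.16, the GTPase Mtg1 by 0.70 ± 0.36 (0.22 in pool 1-4 and 1.17 in pool 5-8) and Ybey, an RNA-processing enzyme, by -0.25 ± 0.16. In these 3 lists 0 genes passed limma's threshold, and 1 gene, Gfm2, had an unadjusted p under 0.05.

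Of 11 genes of mitochondrial transcription and DNA maintenance, 3 were higher in both pools and 0 lower, with a median of 0.13. Mgme1, an exonuclease of mitochondrial DNA, read 1.68 and 1.91 with ProMyo and 1.27 and 0.69 with saline. The last of these is below the highest background control of its array, 0.99, so the fitted difference of 0.81 ± 0.25 is not a measured size. Mterf2 and Tfb2m differed by 0.32 ± 0.16 and 0.31 ± 0.21. Tfam, which packs mitochondrial DNA and starts its transcription, stood at -0.01 ± 0.16, and the polymerase Polrmt at -0.16 ± 0.28. The 12 regulators of mitochondrial biogenesis had 2 genes higher in both pools and 4 lower. Their median was 0.02, with -0.12 in pool 1-4 and -0.03 in pool 5-8. Esrrg stood at 0.29 ± 0.17, Esrra at -0.35 ± 0.21 and Ppargc1b at 0.31 ± 0.31 (-0.23 in pool 1-4 and 0.85 in pool 5-8). The 16 citrate cycle enzymes measured had 8 genes higher in both pools and 5 lower, with a median of 0.10, and Dlst, Sucla2 and Fh1 at 0.46 ± 0.15, 0.20 ± 0.16 and 0.19 ± 0.16. In these 3 lists 0 genes passed limma's threshold, and at an unadjusted p under 0.05 stood Dlst and, with that background signal in its fit, Mgme1. For comparison, the 40 cytosolic ribosomal protein genes had a median of -0.03, with 9 higher and 13 lower in both pools, and the 33 nuclear genes of complex I subunits one of -0.03, with 8 and 14. The difference of the members from these lists was not tested, and all lists were read from the same 4 arrays.

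**Figure D4:**
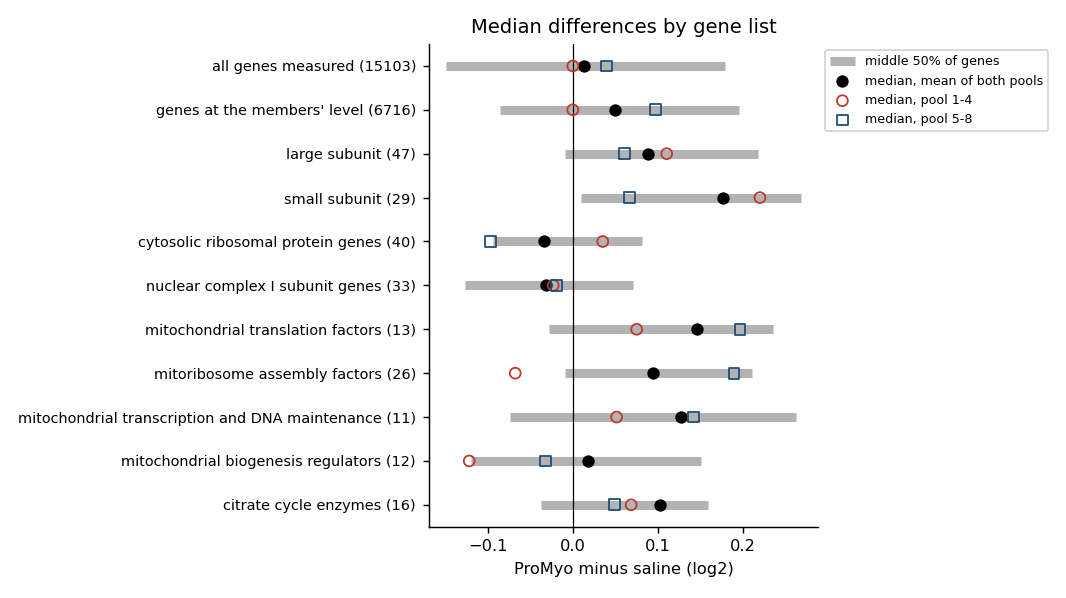
Median of ProMyo minus saline (x axis, log2) by gene list, with the number of genes in brackets. Filled circles are medians of the mean over both pools, open red circles those in pool 1-4, open blue squares those in pool 5-8, and grey bars span the middle 50% of genes; the small subunit median is 0.18 and the large subunit median 0.09, against 0.01 for all genes.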

How the data were processed

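The deposited table holds log2 expression values for each probe set, which the authors made in Expression Console of Affymetrix by RMA; this is per the submitters' processing notes, and the software's version is not given in the sources used here. No label states the log base. The values, from -0.45 to 13.15, were read as log2, and array medians of 1.06 to 1.11 are low for RMA, so fold values hold on this deposited scale. Arrays have no read depth, and their number limits the precision. No further normalization was applied.

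Gene symbols came from the platform annotation: 34945 probe sets had 1 symbol and 932 had several, and no gene was named from the latter, Mrpl30 and Mrpl53 among them. Each gene took the value of its brightest probe set and was kept if its mean reached the 25th percentile of probe sets. ProMyo was compared with saline over 15103 genes in limma 3.58.1 (R 4.3.3, lmFit and eBayes, 2 residual degrees of freedom, Benjamini-Hochberg over all genes, threshold 0.05); the code was tested on simulated data. Standard errors are those of this fit.

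Both muscles came from the same mice, so same-numbered pools are paired by the design; their deviations from the group means correlated with r = 0.16 across genes and -0.09 across members. The fit without pairing is the one reported. Members, lists, tests and named genes were chosen with earlier results of these data known. Named members were, in each subunit, the 3 highest and 3 lowest differences of 1 direction in both pools, the 3 brightest and 3 dimmest, those with an unadjusted p under 0.05 or with opposite pool differences of at least 0.5 (none had these), and 9 chosen for their role; in each list up to 3 genes with the smallest p, with Tfam, Polrmt, Tufm and Gfm1. Ighmbp2, Sars2 and Psma2 were named after their values were seen. Alternatives were the pool as a block, other filters, probe set choices and scalings, variance models with trend, and leaving out each array. Centring on genes of similar signal, their use as background, and leaving out Mrps36 were added after seeing the data. Promoter sequences are those of RefSeq.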

Additional observations from a re-analysis of the deposited data

How the results depend on the processing

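The count of 0 genes past limma's threshold held in each alternative run. These runs took the pool as a replicate block, no filter, the 50th percentile as filter, the mean of all probe sets and median-centred arrays. Others were quantile normalization, 2 variance models with trend, a threshold of 0.1, and each array left out in turn. A further run took probe sets named _s_at or _x_at only for genes with no other. Mrps12 and Mrps24, which have only such probe sets, kept them there. The pairing changed no call. The large subunit median of 0.09 became 0.018 with quantile normalization and 0.031 with arrays centred on genes of similar signal, and lay between -0.017 and 0.20 without single arrays. The small subunit median of 0.18 lay between 0.064 and 0.29 without single arrays. With an array left out, both arrays of 1 group were set against the single one of the other, which is not the count within pools. By that measure 24 to 52 members were higher and 9 to 22 lower in ProMyo muscle. With all 4 arrays, both ProMyo arrays were above both saline arrays for 23 members and below for 8. Leaving out an array cannot lower these counts.

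Of 346 alternative values of the 28 named members, 329 kept their direction. The 329 include values that could not reverse. The pool as a block and the other filters, with 28 values for each run, leave every difference as it is. For members with a single probe set, the choice of probe set changes nothing either. With the mean of all probe sets, Mrpl3 read 0.24, Mrpl51 -0.014 and Mrps11 -0.15. Mrpl11 read 0.076 without probe sets that can cross-hybridize, and Mrpl51 -0.012 with centring on genes of similar signal. At the next brightest probe set, Mrpl3 read 0.16 and Mrps24 0.12. Without single arrays, Mrpl51 lay between -0.016 and 0.11, Mrpl10 between -0.12 and 0.29, Mrps5 between -0.13 and 0.41, Mrps36 between -0.32 and 0.0033, Mrpl12 between -0.30 and 0.17, Mrpl46 between -0.21 and 0.65, Mrpl58 between -0.017 and 0.44 and Mrps22 between -0.036 and 1.20. The cause of these changes was not tested. With 2 arrays per group and a median standard error of 0.19 across genes, differences of the size seen in the members are not detectable gene by gene.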
